A study of Homo sapiens with 12 samples.

Results

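The genes described here encode the lysosomal proton pump, 11 cathepsins, 3 lysosomal membrane proteins and the 4 transcription factors of the MITF/TFE family. They were chosen by symbol: every protein-coding gene whose symbol begins with ATP6V0 or ATP6V1, except ATP6V0D2, together with CTSA, CTSB, CTSC, CTSD, CTSF, CTSH, CTSL, CTSO, CTSS, CTSW, CTSZ, LAMP1, LAMP2, CD63, MITF, TFEB, TFEC and TFE3. This gave 40 genes of the 36601 in the table: 8 of the V0 sector, 13 of the V1 sector, 11 cathepsins, 3 membrane proteins, 4 transcription factors and ATP6V1FNB. The last is a neighbour of ATP6V1F (chr7:128866308-128872044 against chr7:128862826-128865844, GRCh38, GENCODE 29) that matches the symbol pattern and is no pump subunit.

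Bulk RNA sequencing covered 12 libraries of H9, an established human embryonic stem cell line labelled wild-type and cytokine-induced, on the way to γδ T cells. The 3 libraries of day 10 are labelled hematopoietic progenitors, the 3 of day 15 and the 3 of day 20 T progenitors, and the 3 of day 25 mature γδ T cells, all in the same batch. Cells of every group had passed through APEL2 medium with CHIR99021, BMP4, Activin A and Y-27632, then VEGF and bFGF, and from day 6 also Flt3L, IL-7, SCF and SB431542; from day 10 the medium was MEM-α with serum, "MAP", DLL4 (a Notch ligand), Flt3L, IL-7 and SCF. The stem cells had been kept on mouse embryonic fibroblasts, every group is a whole culture of 1 line, and no sort is described in the labels. They do not say whether the libraries of a day came from separate cultures, so the p-values below speak only of the spread among the libraries sequenced, and that spread may be technical.

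Library totals ran from 27026196 to 39811230 counts. The labels of the later days were set against markers: the 14 defining genes of T and NK cells summed to between 8.07 and 10.2 CPM on day 10, 66.2 and 70.1 on day 15, 110.2 and 120.5 on day 20, and 62.2 and 70.4 on day 25. On day 25 CD3D and CD3G were at 0 counts and CD3E at 0.168 ± 0.105 CPM (SD, n = 3), while NKG7 had gone from 1.91 ± 0.357 on day 10 to 45.9 ± 3.85 and the γ chain gene TRGC1 from 1.69 ± 0.148 to 10.0 ± 0.872. Both had stood higher on day 20, at 67.7 ± 3.64 and 24.8 ± 1.7. Of this list 10 genes were tested, and 6 were higher and 1 lower on day 25 than on day 10 (38.6% and 36% of all genes tested). From day 20 to day 25, 0 were higher and 6 lower (24.5% and 25.1% of all genes tested). The δ chain gene TRDC was at 0.379 ± 0.299 CPM on day 25, LCK at 0.125 ± 0.081 and CD2 at 0.0161 ± 0.0278. By contrast, 13 monocyte and macrophage genes summed to between 154 and 164 CPM on day 10, 1442 and 1532 on day 15, 6486 and 6668 on day 20, and 8250 and 8536 on day 25. CPM here means read counts divided by library size, on the usual CPM scale, with library sizes adjusted by the TMM method of edgeR. The 9 neutrophil granule genes summed to between 441 and 461 CPM on day 10 and 5518 and 5827 on day 15, were highest on day 20 (17840 to 18170), and stood between 8045 and 8216 on day 25. MPO made up most of this sum on day 20, at 11860 ± 46.9 CPM, and was at 4332 ± 42 on day 25. Taken singly, 4 of the 9 were higher on day 25 than on day 20 and 5 lower (24.5% and 25.1% of all genes tested). Day 15 was the highest day of the sum of 8 megakaryocyte and platelet genes, which went from between 4807 and 5142 CPM on day 10 to between 22970 and 23930 and then to between 389 and 396 on day 20. It was also the highest day of the sum of 7 eosinophil genes. That sum ran from 110 to 120 CPM on day 10, 9479 to 10030 on day 15, 5964 to 6187 on day 20 and 904 to 929 on day 25. Gene by gene, 3 of these 7 were higher on day 20 than on day 15 and 4 were lower. In addition, 8 osteoclast-like genes summed to between 50.1 and 52.6 CPM on day 10, 273 and 291 on day 15, 265 and 281 on day 20, and 1263 and 1285 on day 25. Different genes made up most of this sum. On days 10 and 15 it was NFATC1, with 45.5 ± 1.36, 260 ± 9.87, 31.3 ± 1.5 and 51.4 ± 4.86 CPM on the 4 days. On days 20 and 25 it was ACP5, with 0.692 ± 0.107, 8.80 ± 0.42, 201 ± 7.03 and 855 ± 11.7 CPM on the 4 days. CALCR was nearly silent on every day, and the 7 others were all higher on day 25 than on day 10, as 38.6% of all genes tested were. The 7 stromal genes summed to between 1130 and 1159 CPM on day 10, 1530 and 1605 on day 15, 6895 and 7011 on day 20, and 4609 and 4687 on day 25. For 8 mast cell genes the sum ran from 260 to 262 CPM on day 10, 436 to 467.5 on day 15, 576 to 583 on day 20 and 814.5 to 850 on day 25. GATA2 made up most of it on day 10, with 169 ± 4.01 CPM then and 208 ± 2.5 on day 25. CPA3 went from 0.0714 ± 0.0756 to 186 ± 8.2 CPM between these days. CMA1 was nearly silent throughout, and the 7 others were all higher on day 25 than on day 10, as 38.6% of all genes tested were. In bulk RNA fewer cells of a type cannot be told apart from less RNA per cell. The part of these other cells in the results below was not tested.

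The vacuolar ATPase is a rotary pump that acidifies lysosomes. Its V1 sector, outside the membrane, splits ATP in a ring of A and B subunits, and its V0 sector carries protons across the membrane through a ring of c subunits beside subunit a. Acid pH activates the cathepsins, the main proteases of the lysosome, and LAMP1 and LAMP2 line its inner face. MITF, TFEB, TFEC and TFE3 bind E-box letters, and TFEB and TFE3 are known to switch on many lysosomal genes together. Macrophages, granulocytes and osteoclasts are rich in lysosomal proteases and in some pump isoforms, and cytotoxic lymphocytes carry cathepsin W.

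Over the whole course the proton pump, the cathepsins, the membrane proteins and the transcription factors were mostly higher on day 25 than on day 10, and by very different amounts. Of 36 genes that passed the filter on low counts, 30 were called higher and 4 lower at an adjusted p under 0.05 (edgeR quasi-likelihood test, Benjamini-Hochberg over 20183 genes), beside 38.6% higher and 36% lower of all genes tested. At 2-fold or more, 26 were higher and 1 lower, beside 26.5% and 16.5% of all genes. The median log2 fold change was 3.84 over 10 cathepsins, 3.49 over 4 transcription factors, 1.74 over 3 membrane proteins and 1.04 over 18 pump subunits, beside 0.02 over all genes tested. The 3 libraries of day 25 lay apart from the 3 of day 10 for 34 of the 36. How many of all genes lay apart in this way was not counted, so no background stands beside that number. Of the 30 rises 29 and of the 4 falls 3 were called under each of the 4 other scalings and filters run, ATP6V1A and ATP6V1G2 being the exceptions. All 36 differed among the 4 days, where 90.5% of all genes did so.

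**Figure D1:**
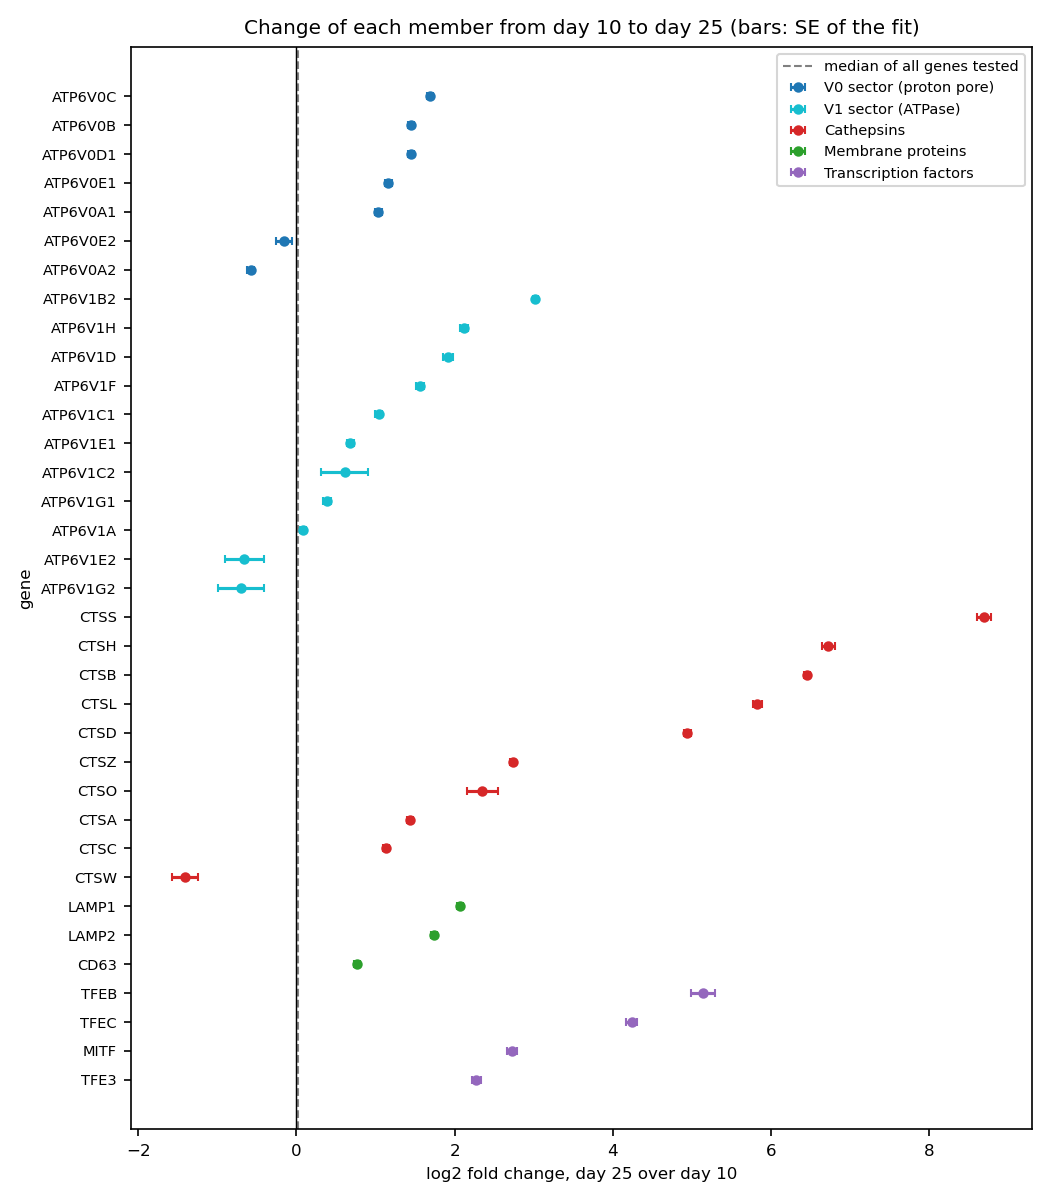
Log2 fold change from day 10 to day 25 of 35 of the 36 tested genes (ATP6V1FNB is left out), grouped by role, with the SE of the edgeR fit as bars and the median of all genes tested (0.02) as a dashed line. CTSS lies farthest to the right at 8.70 and CTSW farthest to the left at -1.41, and the pump subunits lie between -0.70 and 3.02.

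The remaining 4 genes were nearly silent and were not tested. ATP6V1G3 had 0 counts in every library, ATP6V1B1 had 2 in all, CTSF had 19 and ATP6V0A4 had 53, of which 26 were in 1 library of day 20 (the third). ATP6V1B1 and ATP6V0A4 are the isoforms known from kidney and inner ear. A count of 0 allows up to 3 counts, which is between 0.0723 and 0.145 CPM in a library, counting error only.

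All 4 transcription factors rose from day 10 to day 15, as 42.4% of all genes tested did, and the 4 parted after that. MITF, the master factor of pigment cells that also acts in mast cells and osteoclasts, counted 18.4, 22.6 and 16.3 CPM on day 10, 190.5, 186 and 187 on day 15, 70.1, 74.6 and 70.7 on day 20, and 125, 127 and 132 on day 25. No 2 days overlapped, and day 15 was the highest, as it was for the sums of the megakaryocyte and eosinophil markers above. The part of those cells in this peak was not tested. The rise to day 15 was 9.75-fold (log2 3.29 ± 0.0654 SE, adjusted p = 2.7e-31), and the level then fell by 1.39 on the log2 scale to day 20 (adjusted p = 1.2e-21).

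TFEB, the best known activator of lysosomal genes, was scarce at first, with 0.889, 1.10 and 0.709 CPM on day 10. It counted 4.51, 6.19 and 5.18 CPM on day 15, 14.2, 15.6 and 14.3 on day 20, and 30.1, 35.4 and 32.3 on day 25. TFEB was the one factor called higher at every step, with no overlap between days, and ended 35.4-fold above day 10 (log2 5.15 ± 0.152 SE, adjusted p = 2.6e-30).

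TFEC, a family member found in macrophages, counted 6.22, 5.77 and 5.64 CPM on day 10, 30.2, 29.7 and 27.7 on day 15, 105, 101 and 107 on day 20, and 114, 109 and 111 on day 25. It ended 18.9-fold above day 10 (log2 4.24 ± 0.0668 SE, adjusted p = 9.4e-41), and its last step was not called (log2 0.09 ± 0.0494 SE, adjusted p = 0.14). TFE3, which is expressed widely, counted 23.7, 26.0 and 22.6 CPM on day 10, 109, 110.2 and 118 on day 15, 88.3, 94.4 and 96.2 on day 20, and 116, 116 and 119.9 on day 25. Its rise came on day 15 (log2 2.22 ± 0.0554 SE, adjusted p = 5.2e-33), and its later steps were at most 0.33 in size on the log2 scale; the fall from day 15 to day 20, -0.27, turned into a rise of 0.35 when libraries were scaled by total counts alone.

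Per kilobase of exon, where levels of different genes can be set side by side, TFE3 made up 61.7% ± 1.59 (SD, n = 3) of the 4 factors on day 10 and 42.9% ± 0.36 on day 25. TFEC rose from 7.50% ± 0.763 to 20.2% ± 0.609 and TFEB from 1.74% ± 0.215 to 9.04% ± 0.734. MITF held 29.02% on day 10, 46.1% on day 15, 21.6% on day 20 and 27.9% on day 25. The order of MITF and TFE3 on day 15 depended on the length used: both stood at 26.2 CPM per kilobase by the union of exons, and at 39.0 and 32.9 by the longest transcript. These shares take the union of a gene's exons in GENCODE 29 as its length; with the longest transcript, TFEB held 13.9% on day 25.

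The regulators of these factors moved both ways. Of 19 listed (the folliculin complex, Rag GTPases, Ragulator, mTOR and its TSC inhibitors, and calcineurin), 11 were higher and 4 lower on day 25 than on day 10, beside 38.6% and 36% of all genes tested, with a median log2 fold change of 0.23. RRAGD, a Rag GTPase, went from 3.18 ± 0.299 to 60.9 ± 3.4 CPM (log2 4.25) and FNIP2, a folliculin partner, from 33.1 ± 1.91 to 203 ± 2.93 CPM (log2 2.62); both were named after their values were seen. PPP3R1, the regulatory subunit of calcineurin, fell from 170 ± 3.70 to 66.7 ± 4.23 CPM, and LAMTOR1, the membrane anchor of Ragulator, from 215 ± 1.12 to 96.0 ± 3.39 CPM.

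The promoters of some members carry the letters these factors are known to bind. RefSeq promoter windows (GRCh38.p14, 250 bases before to 50 after a start) were matched for 28 of the 40 genes by symbol, 47 windows in all. CACGTG, which reads the same on both strands, stood in a window of 9 of the 28 genes (32.1%), against 8.77% of all 27305 genes in that table and 11.5% of the 14030 of them that were tested here. Counted by window, it was 21.3% for the members against 7.26% of all 35116 windows. TCACGTGA, which contains it, stood in 4 of the 28 genes (14.3%), against 1.18% of all genes and 1.85% of those tested here. Within 100 bases before the start, CACGTG stood in 8 of the 28, in 4.25% of all genes and in 5.77% of those tested here.

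The 9 genes were ATP6V0B, ATP6V0D1, ATP6V0E2, ATP6V1G1, CTSA, CTSD, CTSF, CD63 and LAMP1. In ATP6V0E2 the same letters lie in 2 overlapping windows of its 3, and in CD63 they lie in 1 of 8. Stretches ending at the base before the start are shown for 6 of them, on the gene's strand, with CACGTG in capitals, to show how many copies there are and how close they lie to the start. The first is chr13:113297039-113297238 (+), and the others are chr1:43974890-43974959 (+), chr16:67481158-67481227 (-), chr9:114587699-114587768 (+), chr20:45891265-45891334 (+) and chr11:1763928-1763997 (-).
LAMP1: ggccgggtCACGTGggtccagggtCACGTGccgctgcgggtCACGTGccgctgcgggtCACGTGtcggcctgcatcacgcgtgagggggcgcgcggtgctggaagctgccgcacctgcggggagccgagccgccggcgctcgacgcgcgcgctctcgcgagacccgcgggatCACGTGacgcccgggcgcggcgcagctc
ATP6V0B: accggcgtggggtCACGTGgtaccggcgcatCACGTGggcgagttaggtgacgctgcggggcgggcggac
ATP6V0D1: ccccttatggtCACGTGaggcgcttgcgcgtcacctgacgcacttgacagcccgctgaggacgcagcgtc
ATP6V1G1: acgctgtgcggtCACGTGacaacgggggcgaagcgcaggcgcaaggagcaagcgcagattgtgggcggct
CTSA: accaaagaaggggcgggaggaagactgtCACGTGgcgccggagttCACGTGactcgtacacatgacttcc
CTSD: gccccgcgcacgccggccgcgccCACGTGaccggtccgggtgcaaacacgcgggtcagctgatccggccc
LAMP1 had 5 copies wholly before its start, and another that begins at its last base before the start. In ATP6V0D1 and ATP6V1G1 the single copy began 59 and 58 bases before the start and was part of TCACGTGA in both.

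**Figure D2:**
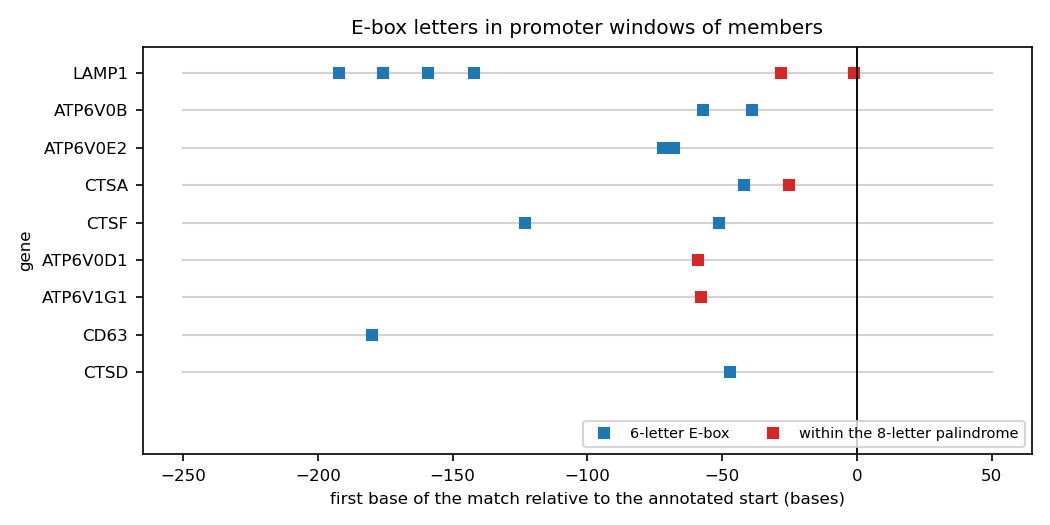
Position of each CACGTG match (squares, red where it is part of TCACGTGA) in the promoter windows of the 9 genes, in bases from the annotated start, with grey lines for the extent of a window. All but 6 of the 18 squares lie in the last 100 bases before the start; LAMP1 has 6 matches.

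The 8 tested genes that hold CACGTG changed by a median log2 of 1.45 from day 10 to day 25 (range -0.16 to 4.95), and the 16 tested genes with a window that lacks it by 1.80 (range -0.70 to 6.73). The 12 genes without a window are in neither group: ATP6V0E1, ATP6V1A, ATP6V1B2, ATP6V1C1, ATP6V1E2, ATP6V1H, ATP6V1FNB, CTSB, CTSO, CTSS, CTSW and LAMP2. They changed by a log2 from -1.41 (CTSW) to 8.70 (CTSS), the lowest and the highest of all tested members. A match describes letters in a window and not a bound site, and which factor occupied any of them was not measured.

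In the V0 sector, 5 of 7 tested subunits were higher on day 25 than on day 10, each at least 2-fold, 1 was lower and 1 was not called. Of all genes tested 38.6% were higher and 36% lower, and 26.5% were higher at 2-fold or more. ATP6V0C encodes the c subunit of the proton ring. It counted 218, 222 and 226 CPM on day 10, 355, 377 and 394 on day 15, 347, 340.4 and 334 on day 20, and 715, 682 and 749 on day 25. Day 25 stood well above the other days (3.22-fold over day 10, log2 1.69 ± 0.0368 SE, adjusted p = 3.4e-35).

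ATP6V0B, a second gene of the ring, moved later. It counted 79.2, 78.7 and 84.3 CPM on day 10, 74.3, 78.4 and 80.5 on day 15, 162, 156 and 153 on day 20, and 221, 215 and 225 on day 25, so that days 10 and 15 overlapped and both later days lay above them. ATP6V0D1, the common d subunit that joins the ring to the stalk, counted 86.6, 80.4 and 76.3 CPM on day 10, 143, 151 and 148 on day 15, 144, 147 and 144 on day 20, and 218, 219 and 228 on day 25. Both ended with a log2 change of 1.45 over day 10.

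Subunit a exists in 4 isoforms that steer the pump to different membranes. ATP6V0A1 counted 108, 115 and 109 CPM on day 10, 179, 184 and 189.9 on day 15, 134, 138 and 135 on day 20, and 229, 227 and 228 on day 25 (log2 1.04 ± 0.0386 SE over day 10, adjusted p = 1.4e-26). ATP6V0A2, the isoform of the Golgi and early endosomes, went the other way, from 140.4, 146 and 140.4 CPM on day 10 to 84.6, 84.3 and 88.4 on day 15, 105, 107 and 109.5 on day 20, and 96.0, 100.1 and 89.4 on day 25. Its log2 change to day 25 was -0.58 ± 0.0443 SE (adjusted p = 1.4e-15), with no overlap. The count of ATP6V0A2 relative to ATP6V0A1 within a library, which no scaling of libraries can alter, was 1.28 ± 0.0129 (SD, n = 3) on day 10 and 0.418 ± 0.0244 on day 25.

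TCIRG1 encodes the a3 isoform of osteoclasts and phagocytes and does not match the symbol pattern; it and ATP6V0D2 were added here because they are paralogues of members. TCIRG1 rose from 98.3 ± 1.39 to 661 ± 19.8 CPM (log2 2.75, adjusted p = 4.7e-43). Per kilobase of exon it held 52.2% ± 0.845 of the a isoforms on day 10, 52.0% on day 15, 76.9% on day 20 and 84.4% ± 0.358 on day 25, while ATP6V0A1 went from 23.6% to 11.7% and ATP6V0A2 from 24.1% to 3.88%. With the longest transcript as length TCIRG1 went from 44.6% to 79.5%. In the same way ATP6V0D2, the osteoclast and macrophage form of subunit d, went from 0.577% ± 0.549 of subunit d on day 10 to 12.5% ± 1.54 on day 20 and 35.4% ± 0.489 on day 25 (21.8% by the longest transcript), from 0.180 ± 0.18 to 44.5 ± 1.58 CPM.

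**Figure D3:**
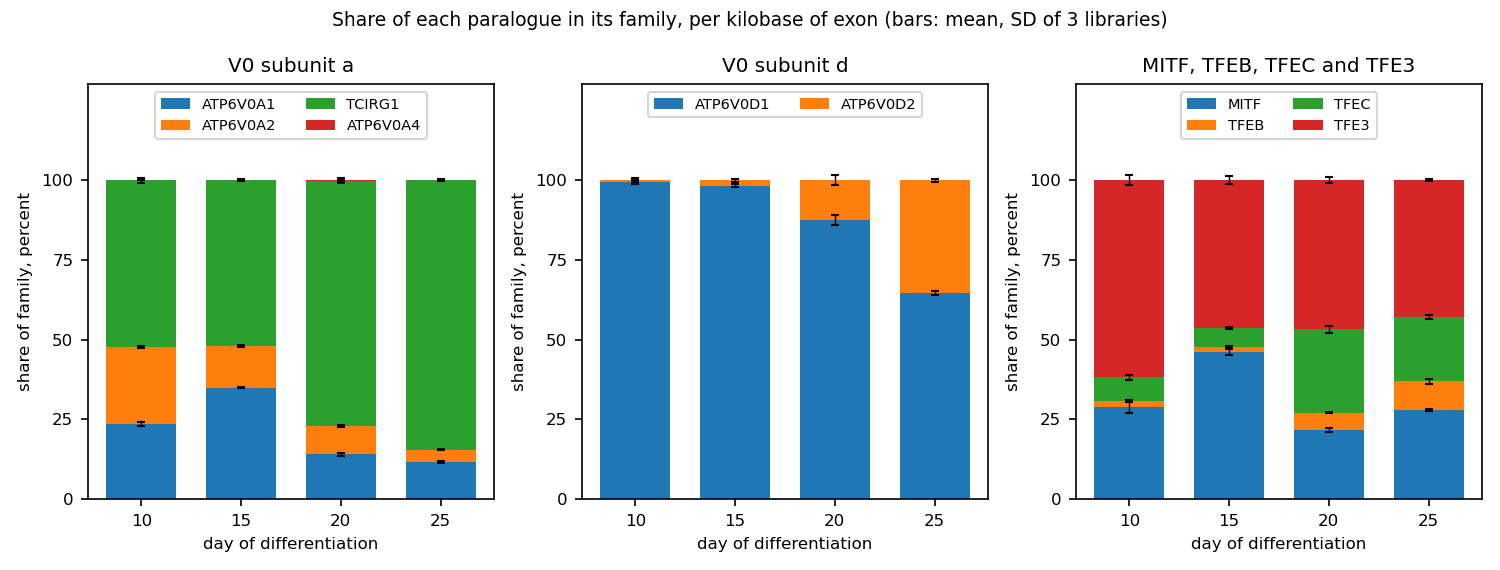
Share of each paralogue in its family per kilobase of exon on each day, as stacked bars of the mean of 3 libraries with SD, for V0 subunit a, V0 subunit d and the MITF/TFE factors. TCIRG1 reaches 84.4% of subunit a and ATP6V0D2 35.4% of subunit d on day 25, while TFE3 declines from 61.7% to 42.9% of the factors.

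Subunit e, a small membrane protein needed for assembly, came mostly from ATP6V0E1 on every day, which held 93.9%, 99.7%, 98.1% and 97.5% of it per kilobase of exon on the 4 days. ATP6V0E1 counted 85.6, 79.3 and 78.9 CPM on day 10, 221, 224 and 232 on day 15, 134, 129.5 and 124 on day 20, and 184, 183 and 179 on day 25. ATP6V0E2 counted 21.6, 21.1 and 23.7 CPM on day 10, 2.36, 2.75 and 2.21 on day 15, 10.5, 10.3 and 11.0 on day 20, and 19.1, 18.9 and 21.2 on day 25. The second dropped 9.08-fold to day 15 (log2 -3.18 ± 0.132 SE, adjusted p = 7.3e-25) and came back to a day 25 level that overlapped day 10 (adjusted p = 0.14). Of its exon bases 12.8% are shared with the antisense gene ATP6V0E2-AS1, so its counts may include that gene.

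In the V1 sector, 8 of 11 tested subunits were higher on day 25 than on day 10, 5 of them at least 2-fold, and 2 were lower. The shares of all genes tested were 38.6%, 26.5% and 36%. ATP6V1B2, the B subunit found in most tissues, led the rises of this sector. It counted 85.7, 84.7 and 79.6 CPM on day 10, 309.9, 313 and 326 on day 15, 311, 305 and 308 on day 20, and 682, 659 and 692 on day 25. Days 15 and 20 overlapped, and the rise over day 10 was 8.13-fold (log2 3.02 ± 0.037 SE, adjusted p = 8e-45).

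ATP6V1A, the catalytic A subunit that alternates with B in the ring, did not follow it. It counted 205, 215 and 213 CPM on day 10, 351, 336 and 322 on day 15, 161, 155 and 161 on day 20, and 226, 220.2 and 224 on day 25. Its change to day 25 was a log2 of 0.08 ± 0.0363 SE (adjusted p = 0.04), and that call was lost without any 1 of 4 libraries, the first or the third of day 10 or of day 25 (adjusted p from 0.056 to 0.18). Within a library the count of ATP6V1B2 over that of ATP6V1A was 0.395 ± 0.0222 (SD, n = 3) on day 10, 0.942 ± 0.0638 on day 15, 1.94 ± 0.0256 on day 20 and 3.03 ± 0.0516 on day 25, with no overlap between days.

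ATP6V1H, a regulatory subunit that bridges the sectors, rose late. It counted 31.0, 36.7 and 33.3 CPM on day 10, 37.2, 36.6 and 38.7 on day 15, 47.0, 47.4 and 49.0 on day 20, and 143, 147 and 150.2 on day 25. The last step was 3.07-fold (log2 1.62 ± 0.0535 SE, adjusted p = 1.5e-27). Its first step was small (log2 0.15, adjusted p = 0.022), overlapped, was not called without the first or the third library of day 10 or the third of day 15 (adjusted p from 0.07 to 0.21), and turned to -0.38 with scaling by total counts alone.

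ATP6V1D, of the central stalk, counted 22.1, 24.6 and 20.9 CPM on day 10, 77.8, 75.5 and 80.6 on day 15, 39.7, 38.8 and 37.5 on day 20, and 84.8, 83.0 and 88.1 on day 25, with a dip on day 20 that did not touch either neighbour. ATP6V1F, also of the stalk, counted 48.2, 47.0 and 46.0 CPM on day 10, 47.5, 46.5 and 48.3 on day 15, 73.2, 75.3 and 70.2 on day 20, and 139.8, 135 and 142 on day 25. Days 10 and 15 overlapped for ATP6V1F, and 23.7% of its exon bases are shared with KCP on the other strand. ATP6V1C1, of the outer stalk, counted 65.5, 69.5 and 66.8 CPM on day 10, 96.9, 94.8 and 99.7 on day 15, 93.8, 91.0 and 97.7 on day 20, and 140, 139 and 136 on day 25.

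Subunits E, G and C of the V1 sector each came mostly from 1 paralogue. ATP6V1E1 went from 85.9 ± 2.69 to 173 ± 5.84, 90.7 ± 1.74 and 138 ± 5.95 CPM, and ATP6V1G1 from 70.9 ± 1.67 to 87.4 ± 5.77, 81.0 ± 2.67 and 92.4 ± 5.42. Their paralogues ATP6V1E2, ATP6V1G2 and ATP6V1C2 stayed between 1.17 and 3.87 CPM on average, and on day 25 the widely expressed form held 99.1% of subunit E, 99.2% of subunit G, 96.5% of subunit C and 99.99% of subunit B per kilobase. Of the exon bases of ATP6V1C2 29.7% are shared with PDIA6 on the other strand, so its counts may include that gene. ATP6V1E2 and ATP6V1G2 were called lower on day 25 than on day 10 (log2 -0.66 and -0.70, adjusted p = 0.015 and 0.029). Neither call survived without the first library of day 10 or the third of day 25, and the second was lost also without the third of day 10 or the first of day 25 (adjusted p from 0.055 to 0.14). ATP6V1FNB, the neighbour gene, went from 2.48 ± 0.236 to 8.87 ± 0.615 CPM (log2 1.83 ± 0.196 SE, adjusted p = 3e-11).

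**Figure D4:**
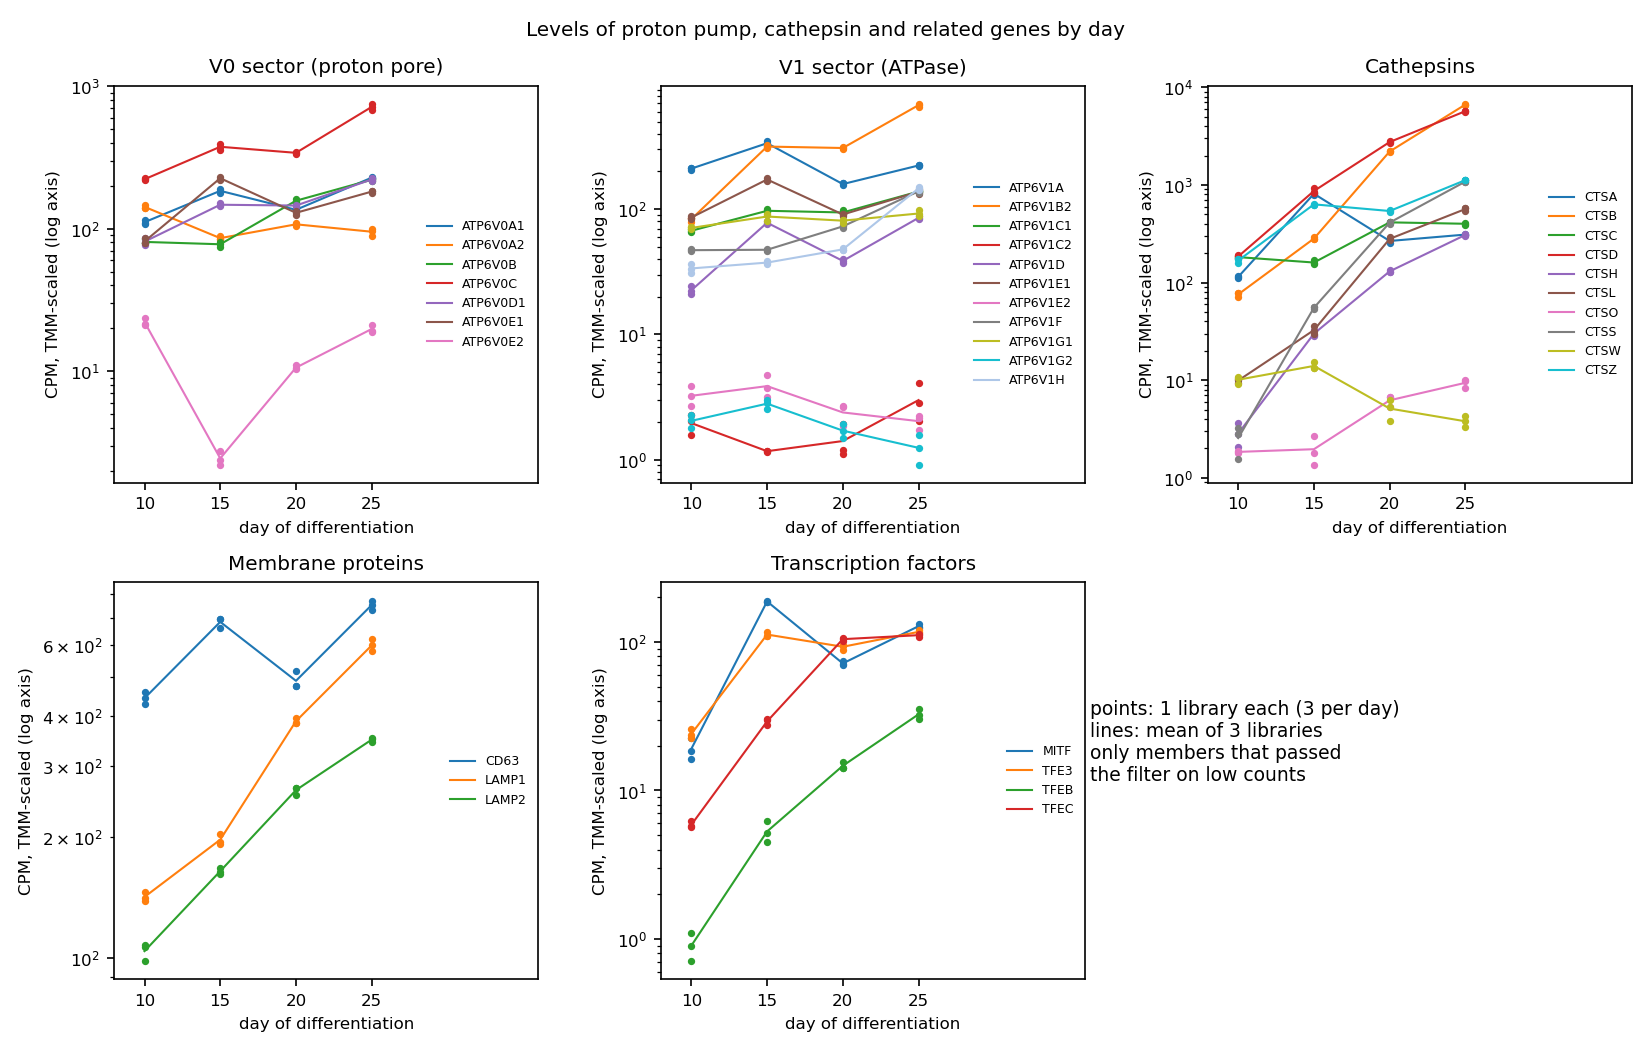
Levels in CPM (log axis) of the 35 tested pump, cathepsin, membrane protein and transcription factor genes by day, with each of the 3 libraries per day as a point and their mean as a line. CTSB and CTSD end highest, at 6666 and 5703 CPM, several pump subunits peak or dip on days 15 and 20, and MITF peaks at 188 CPM on day 15.

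Cathepsins changed most. Of the 10 tested, 9 were higher on day 25 than on day 10, each at least 2-fold, and 1, CTSW, was lower. Of all genes tested 38.6% were higher and 36% lower, and 26.5% were higher at 2-fold or more. None of the 10 overlapped between these days, which was not counted over all genes. CTSB, a cysteine protease that also trims peptides, counted 77.4, 78 and 71.6 CPM on day 10, 276, 277 and 294 on day 15, 2244, 2203 and 2160 on day 20, and 6614, 6637 and 6747 on day 25. Every day lay above the last, and the whole rise was 88.0-fold (log2 6.46 ± 0.0372 SE, adjusted p = 2.6e-56).

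CTSD (chr11:1752752-1764573, GENCODE 29), the main aspartic protease of lysosomes, counted 192, 178 and 186 CPM on day 10, 818, 854 and 930 on day 15, 2802, 2764 and 2691 on day 20, and 5640, 5749 and 5719 on day 25. It rose 30.9-fold in all (log2 4.95 ± 0.0387 SE, adjusted p = 6.6e-47). Of its exon bases 15.8% are shared with PRADX on the other strand. CTSB overtook CTSD within the library: the ratio of their counts was 0.410 ± 0.0274 (SD, n = 3) on day 10, 0.326 ± 0.0112 on day 15, 0.800 ± 0.00298 on day 20 and 1.17 ± 0.013 on day 25. Per kilobase of exon CTSD stayed ahead on day 25, with 1824 CPM per kilobase against 897 for CTSB.

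CTSS (chr1:150730196-150765957), the protease that clears the invariant chain from MHC class II molecules, rose most. It counted 1.56, 3.26 and 2.83 CPM on day 10, 56.8, 55.7 and 53.0 on day 15, 416, 400.4 and 418 on day 20, and 1063, 1069 and 1118 on day 25, a 416-fold rise (log2 8.70 ± 0.0879 SE, adjusted p = 1.2e-25). CTSH, an aminopeptidase, counted 2.06, 3.66 and 2.80 CPM on day 10, 28.7, 32.9 and 28.2 on day 15, 136, 128 and 127 on day 20, and 312, 309 and 302 on day 25 (106-fold over day 10). CTSL, a general cysteine protease, counted 10.1, 10.3 and 9.35 CPM on day 10, 30.0, 35.7 and 32.1 on day 15, 292, 278 and 272 on day 20, and 576, 546 and 578 on day 25 (57.0-fold over day 10). All 3 were called higher at every step without overlap.

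CTSA, the carboxypeptidase that also protects β-galactosidase and neuraminidase, peaked early. It counted 114, 116 and 112 CPM on day 10, 816, 784 and 837 on day 15, 274, 271 and 255 on day 20, and 307, 308 and 316 on day 25. The rise to day 15 was 7.10-fold (log2 2.83 ± 0.0365 SE, adjusted p = 1.1e-43) and the fall to day 20 3.04-fold (log2 -1.61 ± 0.0344 SE, adjusted p = 1.2e-35). Of its exon bases 17.7% are shared with NEURL2 on the other strand.

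CTSZ, a carboxypeptidase of monocytes, went from 168 ± 8.81 to 633 ± 10.3, 541 ± 9.67 and 1121 ± 6.48 CPM. CTSC, which activates the serine proteases of granules, went from 182 ± 5.06 to 160.4 ± 7.58, 414 ± 8.93 and 400.2 ± 11.2 CPM, so its rise fell between days 15 and 20 (log2 1.37 ± 0.0373 SE, adjusted p = 1.1e-31). CTSO stayed low, from 1.84 ± 0.0575 to 9.40 ± 0.919 CPM. CTSW, the cathepsin of NK and cytotoxic T cells, was singled out after its values were seen; it counted 10.7, 9.11 and 10.5 CPM on day 10, 13.4, 13.3 and 15.3 on day 15, 6.23, 5.33 and 3.79 on day 20, and 3.28, 3.83 and 4.26 on day 25. It fell by 1.41 on the log2 scale from day 10 to day 25 (SE 0.159, adjusted p = 1.2e-10), and days 20 and 25 overlapped.

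Together the 11 cathepsins took 0.0824% ± 0.00107 (SD, n = 3) of all counts on day 10, 0.218% ± 0.00624 on day 15, 0.815% ± 0.0096 on day 20 and 1.68% ± 0.00773 on day 25, of which CTSB and CTSD held 0.692% and 0.592%. The 8 V0 genes went from 0.0810% to 0.175% and the 13 V1 genes from 0.0688% to 0.171%. Within a library the counts of cathepsins over those of pump subunits were 0.550 ± 0.00657 on day 10, 1.27 ± 0.0161 on day 15, 3.64 ± 0.0411 on day 20 and 4.86 ± 0.0893 on day 25. V0 over V1 counts were 1.18 ± 0.0148, 0.931 ± 0.0342, 1.14 ± 0.0114 and 1.02 ± 0.00759 on the 4 days. The V0 and pump sums here hold members only and leave out TCIRG1 and ATP6V0D2. From day 10 to day 25 TCIRG1 went from 98.3 ± 1.39 to 661 ± 19.8 CPM and ATP6V0D2 from 0.180 ± 0.18 to 44.5 ± 1.58. The shares and ratios with both added were not computed.

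**Figure D5:**
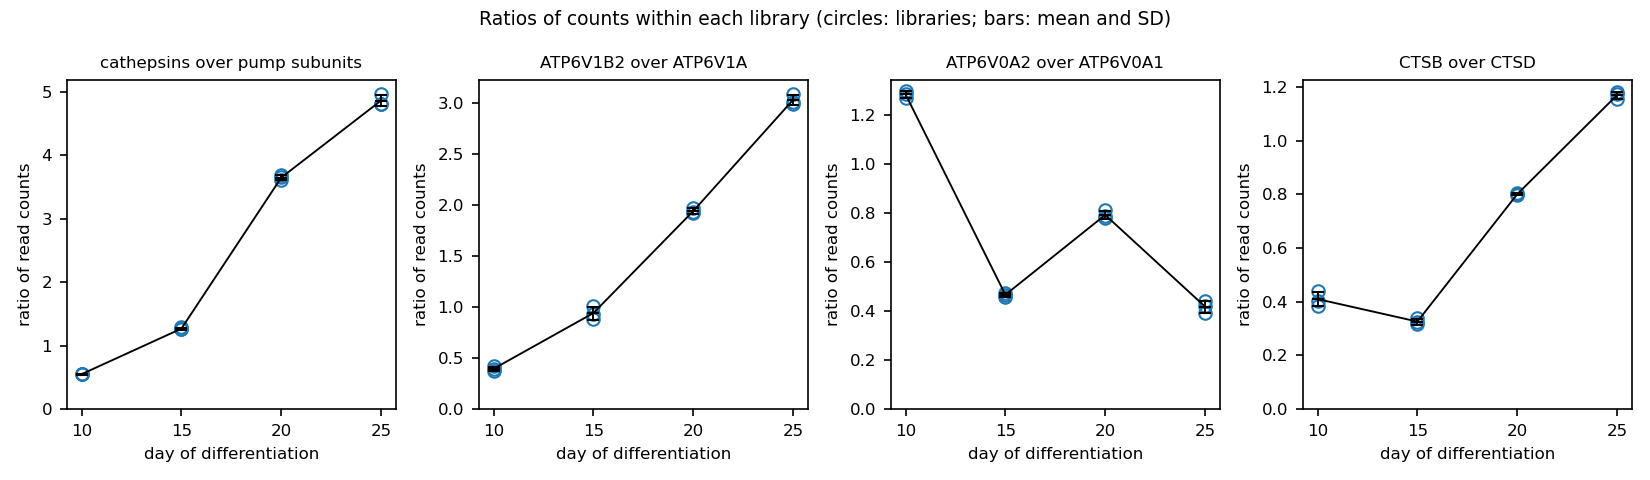
Ratios of read counts within each library by day, which do not depend on how libraries are scaled (circles are libraries, bars the mean and SD of 3). Cathepsins over pump subunits rise from 0.550 to 4.86 and ATP6V1B2 over ATP6V1A from 0.395 to 3.03, while ATP6V0A2 over ATP6V0A1 falls from 1.28 to 0.418. The pump subunits counted here leave out TCIRG1 and ATP6V0D2.

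The 3 membrane proteins ended higher than on day 10, as did 38.6% of all genes tested. LAMP1 (chr13:113297241-113323672), the promoter of which is shown above, counted 139, 146 and 141 CPM on day 10, 194, 204 and 192 on day 15, 384, 395 and 384 on day 20, and 597, 577 and 618 on day 25 (4.20-fold over day 10, log2 2.07 ± 0.0358 SE, adjusted p = 3.2e-39). LAMP2, also a receptor for chaperone-mediated autophagy, counted 98.5, 108 and 106 CPM on day 10, 167, 162 and 164 on day 15, 265, 265 and 254 on day 20, and 351, 345 and 350.4 on day 25 (3.34-fold over day 10). CD63, a tetraspanin of late endosomes and secretory granules, counted 457, 442 and 427 CPM on day 10, 661, 695 and 693 on day 15, 515, 474 and 475 on day 20, and 754, 731 and 772 on day 25, so it dipped on day 20 where the LAMP genes went on rising. The dip of CD63 turned into a log2 rise of 0.14 with scaling by total counts alone; the count of LAMP1 over that of CD63 within a library was 0.322 ± 0.015 on day 10, 0.289 ± 0.00905 on day 15, 0.796 ± 0.0445 on day 20 and 0.794 ± 0.00591 on day 25.

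By step, the move from day 10 to day 15 raised 26 of the 36 and lowered 4, beside 42.4% and 30.8% of all genes tested, with 15 higher and 1 lower at 2-fold or more, beside 28.2% and 14.7%. The median log2 fold change was 0.70, against 0.20 over all genes. The 4 lower were ATP6V0A2, ATP6V0E2, ATP6V1C2 and CTSC; the call on ATP6V1C2 (log2 -0.74, adjusted p = 0.041) was lost without any 1 of 5 libraries. Scaling by total counts alone, without TMM, moved the median of all genes by -0.53 in this comparison, 0.62 from day 15 to day 20 and -0.16 from day 20 to day 25, and fitting without the filter on low counts moved it by -0.20 and 0.24 in the first 2. With total counts alone, 21 of the 36 were higher and 8 lower on day 15, and 21 of the 26 rises were called under each of the 4 other scalings and filters run; ATP6V1C1, ATP6V1G1, ATP6V1H, CTSW and LAMP1 were not.

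From day 15 to day 20 the genes divided, with 16 higher and 16 lower, beside 40.6% and 36% of all genes tested, and 11 higher and 5 lower at 2-fold or more, beside 23.7% and 22.2%. With total counts alone 26 were higher and 7 lower, and without the filter 21 and 10 of the same 36 (22 higher when members that the filter had removed are counted too). The 5 falls of 2-fold or more became 0 with total counts alone and 3 without the filter. The 16 rises held under all 4 of these alternatives: ATP6V0A2, ATP6V0B, ATP6V0E2, ATP6V1F, ATP6V1H, 7 cathepsins (CTSB, CTSC, CTSD, CTSH, CTSL, CTSO and CTSS), LAMP1, LAMP2, TFEB and TFEC. Of the 16 falls, 7 held: ATP6V0E1, ATP6V1A, ATP6V1D, ATP6V1E1, CTSA, CTSW and MITF. The other 9 (ATP6V0A1, ATP6V0C, ATP6V1E2, ATP6V1G1, ATP6V1G2, ATP6V1FNB, CTSZ, CD63 and TFE3) lost the call or turned. ATP6V1G1 had an adjusted p of 0.05 there and lost its call without any 1 of 11 libraries and with a replicate block; ATP6V1E2 and ATP6V1G2 lost theirs without 2 and 3 libraries.

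From day 20 to day 25, 30 were higher and 2 lower, beside 24.5% and 25.1% of all genes tested, and 13 were higher and 0 lower at 2-fold or more, beside 6.7% and 6.86%; with total counts alone the 13 became 5. The median log2 fold change was 0.62, against -0.03 over all genes. The 2 lower were ATP6V0A2 (log2 -0.17, adjusted p = 0.0013) and CTSW (log2 -0.43, adjusted p = 0.027), and the second call was lost without the first or second library of day 20 or of day 25 (adjusted p from 0.058 to 0.24). The call on ATP6V1C2, higher by a log2 of 1.08, was lost without the first library of day 25 (adjusted p = 0.055). Of the 30 rises, 28 held under all 4 alternatives, and ATP6V1G1 and CTSA did not.

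Across the 4 days, 25 of the 36 had their highest mean on day 25, against 25.9% of all genes tested, and 26 their lowest on day 10, against 32.1%. The genes CTSB, CTSD, CTSH, CTSL, CTSS, LAMP1, LAMP2, TFEB and ATP6V1H, 9 of 36, were called higher at each of the 3 steps, against 4.92% of all genes; the first step of LAMP1 turned to -0.06 and that of ATP6V1H to -0.38 with total counts alone. Day 15 was the highest day of 8 of the 36, against 34% of all genes, among them MITF, CTSA, CTSW, ATP6V0E1, ATP6V1A and ATP6V1E1.

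Other lysosome genes were taken from lists of 154 tested genes: 125 were higher and 20 lower on day 25 than on day 10, beside 38.6% and 36% of all genes tested, with a median log2 fold change of 1.36. All 25 glycosidases and sulfatases were higher (median 1.74), as were 13 of 14 lipid hydrolases and activators (median 2.46), 22 of 23 membrane transporters and channels (median 1.54) and 11 of 12 other proteases (median 1.82). Of 16 accessory and assembly genes of the pump, 11 were higher and 4 lower (median 0.40). Under the same limit of 10 CPM the largest rises were in GPNMB, a melanosome and macrophage glycoprotein (0.110 ± 0.102 to 1777 ± 37.9 CPM), ACP5, the tartrate-resistant phosphatase (0.692 ± 0.107 to 855 ± 11.7), CTSG, a neutrophil granule protease (0.600 ± 0.134 to 212 ± 8.1, after 410 ± 18.8 on day 20) and SLC11A1, a metal transporter of phagosomes (3.87 ± 0.539 to 306 ± 6.44). Among listed genes at 10 CPM or more on the higher day, LAPTM4B, PPT2, PPP3R1 and LAMTOR1 fell most, by 1.56, 1.48, 1.35 and 1.16 on the log2 scale.

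Among 7 tested cathepsin inhibitors 5 were higher and 2 lower on day 25 than on day 10 (median 1.72), beside 38.6% and 36% of all genes tested. CSTB, the cytosolic inhibitor stefin B, went from 24.5 ± 0.248 to 28.7 ± 0.875, 136 ± 13.5 and 542 ± 18.5 CPM, and CST3, the secreted cystatin C, from 87.1 ± 2.2 to 158 ± 10.9, 308 ± 7.84 and 393 ± 6.27. Both were named after their values were seen.

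Autophagy genes had their own course. Of 18, 15 were higher on day 15 than on day 10 (median 1.09), beside 42.4% of all genes tested. From day 15 to day 20, 13 were lower, beside 36% of all genes, with a median log2 fold change of -0.79 against 0.10 over all genes; with total counts alone 10 were lower and 6 higher. SQSTM1, the cargo receptor p62, counted 79.9 ± 1.94, 809 ± 40.6, 191 ± 2.66 and 195 ± 6.58 CPM on the 4 days, and GABARAPL1, of the family that coats autophagosomes, 19.1 ± 1, 209 ± 2.38, 88.8 ± 1.54 and 93.6 ± 3.6. Both were highest on day 15, which was the highest day of 34% of all genes tested and of the sums of the megakaryocyte and eosinophil markers.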

How the data were processed

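Total RNA of H9-derived cells was made into 12 libraries by ligation-mediated sequencing and read as single reads on a NovaSeq, per the labels' protocols. The authors deposited one table of whole-number read counts per gene; the genome build is GRCh38 per the submitters' processing notes, and its aligner, counter, annotation and strand setting were not given in the sources used here. The table holds 36601 IDs, of which 36366 had a symbol and 34616 were found in GENCODE 29. All 12 count columns were mapped to samples by name.

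The counts were filtered with filterByExpr (minimum count 10), which left 20183 genes, scaled by TMM (factors from 0.753 to 1.172) and fitted with edgeR 4.0.16 quasi-likelihood in R 4.3.3 on all 12 libraries with day as the only term (biological coefficient of variation 6.03%). Genes were called at a Benjamini-Hochberg adjusted p under 0.05 over all genes tested. The fitting code was tested on simulated data. Libraries of one day differed by more than sampling noise (chi-square over degrees of freedom from 3.49 to 5.16). The limit of 3 counts per library covers the error of counting alone: no molecular identifiers were used, so several reads can stem from a single molecule. Exon lengths and coordinates came from GENCODE 29 and promoter letters from RefSeq GRCh38.p14. Alternatives used limma 3.58.1 and DESeq2 1.42.0; tables were made with pandas 2.3.3 and numpy 2.4.6 under Python 3.11.15, and figures with matplotlib 3.10.9.

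Values per library are given for the transcription factors, the membrane proteins and, in each other role, up to 6 members at 10 CPM or more with the largest ratio of highest to lowest day, and for some isoform pairs. Of the other lysosome genes, the 4 largest called rises and 4 largest falls of a comparison at 10 CPM or more could be named. The members, the gene lists and the alternatives were chosen with earlier results of these data known. Shares, sums and ratios are described without a test.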

Additional observations from a re-analysis of the deposited data

How the results depend on the processing

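Of the counts of called members, 357 recomputed values stayed within 1.5 times the reported one and 17 did not; of the single values, 3056 kept direction and call, 67 lost a call, 11 gained one, 37 reversed and 33 shares moved with the longest transcript as length. With total counts alone, without TMM, the members lower from day 10 to day 15 came to 8 (3 at 2-fold), from day 15 to day 20 26 were higher and 7 lower (0 at 2-fold), and 5 were 2-fold higher from day 20 to day 25. Without the filter, 10 were lower (3 at 2-fold) from day 15 to day 20. From day 20 to day 25, 1 was lower by limma-voom, 1 at an adjusted p under 0.01, and 1 to 2 with a library left out; from day 10 to day 25, 2 at an adjusted p under 0.01, and 2 to 4 with a library left out.

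With total counts alone these log2 fold changes reversed from day 15 to day 20: ATP6V0A1 0.18, ATP6V0C 0.48, ATP6V0D1 0.60, ATP6V1B2 0.58, ATP6V1C1 0.58, ATP6V1G1 0.51, CTSZ 0.39, CD63 0.14 and TFE3 0.35. From day 10 to day 15 they were ATP6V1C1 -0.0040, ATP6V1E2 -0.27, ATP6V1F -0.52, ATP6V1G1 -0.23, ATP6V1G2 -0.072, ATP6V1H -0.38, ATP6V1FNB -0.22, CTSO -0.46, CTSW -0.060 and LAMP1 -0.062, and from day 20 to day 25 TFEC -0.075. Without the filter they were ATP6V0C 0.094, ATP6V0D1 0.22, ATP6V1B2 0.20, ATP6V1C1 0.19, ATP6V1G1 0.12 and CTSZ 0.0083 from day 15 to day 20, and ATP6V1F -0.19, ATP6V1H -0.051 and CTSO -0.13 from day 10 to day 15. With only the compared days in the fit, ATP6V1F was -0.17, ATP6V1H -0.027 and CTSO -0.099 from day 10 to day 15. Without mitochondrial, ribosomal protein and haemoglobin genes ATP6V1F was -0.0020 there. With a library left out, ATP6V1F ranged from -0.012 to 0.023 there (below 0 without replicate 3 of day 10 or of day 15) and CTSO from -0.22 to 0.28 (below 0 without replicate 2 of day 15), and ATP6V1C2 ranged from -0.012 to 0.42 from day 15 to day 20 (below 0 without replicate 1 of day 20). For these reversals the cause was not tested.

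The libraries share replicate numbers, but same-numbered libraries did not deviate together (correlations from -0.0164 to 0.0156 over 18 pairs, and 4 of 12 libraries correlated best with their own number). With a replicate block 15 members were lower from day 15 to day 20 in place of 16, and the other counts of calls did not move. Depth limits ATP6V1C2, ATP6V1E2, ATP6V1G2 and ATP6V1FNB, which stayed under 10 CPM.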
